A study of Mus musculus with 12 samples.

Results

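The response of glomeruli of BALB/cByJcl (ByJcl) mice to adriamycin (ADR) was described across all genes, from 3 libraries at Day 5 after ADR and 3 baseline libraries, which are 6 of the 12 libraries of the series and were chosen by their labels alone. The study sequenced glomerulus-enriched RNA of ByJcl mice and of the related substrain BALB/cAjcl (AJcl), both inbred albino BALB/c mice, to ask how the substrains differ in ADR nephropathy. Male mice were obtained at 8 weeks of age, and no allele or transgene separates the groups compared here. The Day 5 mice had received 1 intravenous (retro-orbital) injection of ADR at 10 mg/kg under isoflurane, and the baseline mice were untreated. Saline-injected mice at Day 5 were not analysed here, so ADR cannot be told apart from anaesthesia, injection and the days between the groups. Glomeruli were caught with magnetic beads that lodge in their capillaries, so the preparation is enriched for glomeruli and is not a purified cell type.

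ADR (doxorubicin) is an anthracycline that intercalates into DNA and traps topoisomerase II on it, which leaves DNA double-strand breaks. Cells with broken DNA stabilise the transcription factor p53, which switches on genes for cell cycle arrest, DNA repair and cell death. The glomerulus is the filter of the kidney: a tuft of fenestrated endothelium held by mesangial cells, a basement membrane, and podocytes, whose interlocking foot processes are bridged by the slit diaphragm. Podocytes divide little, and in susceptible mice ADR causes proteinuria with loss of foot processes, so it is used as a model of podocyte disease.

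Total counts ranged from 47918394 to 54687045 in the baseline libraries and from 43835070 to 46316543 at Day 5, so depth and treatment coincide. The baseline counts and the Day 5 counts came in separate tables, and a difference between the tables cannot be told apart from ADR. Podocyte markers were among the abundant genes in all 6 libraries. The summed level of 20 proximal tubule genes was 1701, 6777 and 5211 CPM at baseline and 1522, 2951 and 5363 CPM at Day 5 in replicates 1, 2 and 3, and 14 lymphocyte genes together stayed between 6.85 and 10.96 CPM (counts scaled to a common library size, as edgeR defines CPM). Values of 3 libraries are given below in the order of their replicate numbers.

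Of 17002 genes tested, 978 were higher at Day 5 (5.75%) and 822 were lower (4.83%) at an adjusted p below 0.05, and a further condition of a fold above 2 left 521 and 273 (4.67% of all genes together). The median log2 fold change of all tested genes was 0.01. The libraries of the groups did not overlap in 1787 of the 1800 called genes, against 33.4% of all tested genes. With 3 libraries per group this follows largely from the calling, so it is not separate support for the calls. The spread was estimated from 11 libraries of 4 groups, and the called genes numbered 841, 730 and 1063 without baseline replicates 1, 2 and 3, and 1576, 680 and 1611 without Day 5 replicates 1, 2 and 3. Of the genes called higher, 137 had a mean below 1 CPM at Day 5, whereas 5 of the genes called lower had a mean below 1 CPM at baseline.

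**Figure D1:**
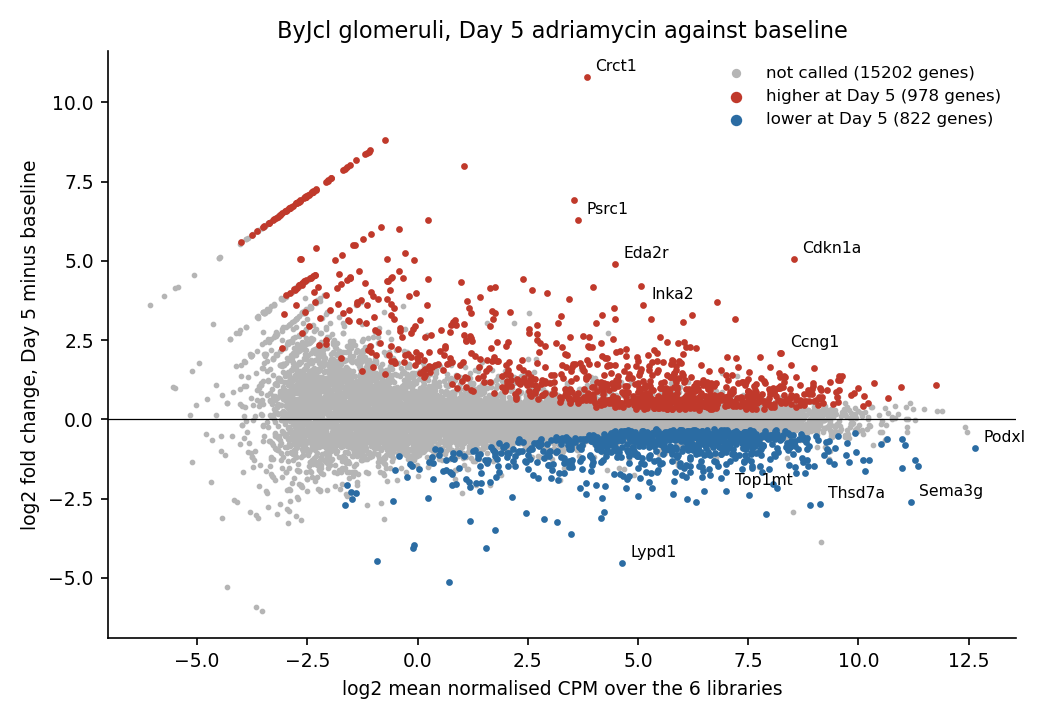
Each point is 1 of the 17002 tested genes, with the log2 of its mean CPM over the 6 ByJcl libraries on the x axis and its log2 fold change, Day 5 minus baseline, on the y axis. Red points are the 978 genes called higher, blue points the 822 called lower and grey points the rest. The p53 targets Cdkn1a and Eda2r stand near 5.04 and 4.89, and the podocyte genes Thsd7a and Sema3g near -2.67 and -2.61.

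Many p53 target genes rose. Of 53 tested members of 3 lists of p53 targets, 30 were called higher, against 5.75% of all genes, and 44 had a positive log2 fold change. None was called lower by edgeR, 1 was lower at an unadjusted p below 0.05, and DESeq2 called 1 lower. Their median log2 fold change was 0.79, against 0.01 for all genes. The number called higher was 24, 20 and 23 without baseline replicates 1, 2 and 3, and 29, 22 and 28 without Day 5 replicates 1, 2 and 3. The lists comprise arrest and feedback genes, death genes and receptors, and repair and metabolism genes, with 15 of 21, 9 of 15 and 6 of 17 members called higher and medians of 0.93, 1.05 and 0.48. For repair and metabolism the count was 3 without baseline replicate 2, baseline replicate 3 or Day 5 replicate 2, and for arrest and feedback it was 10 without baseline replicate 1 or baseline replicate 2.

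Cdkn1a encodes p21, the inhibitor of cyclin-dependent kinases through which p53 halts the cell cycle. Its level was 22.9, 19.96 and 23.1 CPM at baseline and 622, 960.2 and 593 CPM at Day 5 (log2 fold change 5.04, SE 0.31, adjusted p = 1.60e-05). In GRCm39 the gene spans chr17:29309936-29319701 (GENCODE M39). Its mean at Day 5 was 33.0-fold that at baseline, and the 3 baseline libraries lay within a narrow range. Mdm2, the ubiquitin ligase that returns p53 to a low level, was at 77.8, 76.8 and 79.1 CPM at baseline and 172, 227 and 153 CPM at Day 5 (log2 fold change 1.24, SE 0.16, adjusted p = 0.00185). Ccng1 (cyclin G1), which acts in the same feedback, was at 120.1, 107 and 119 CPM at baseline and 457, 553 and 475 CPM at Day 5 (log2 fold change 2.10, SE 0.12, adjusted p = 1.60e-05). Neither gene's groups overlapped, and Mdm2 had the smallest log2 fold change of the 3 genes. Phlda3, which restrains the kinase Akt, was at 30.6, 29.7 and 29.5 CPM at baseline and 288, 299 and 212 CPM at Day 5 (log2 fold change 3.15, SE 0.23, adjusted p = 9.68e-05). Gtse1, a microtubule-binding protein that also controls p53, was below 1 CPM in every baseline library, at 0.521, 0.635 and 0.866 CPM at baseline and 11.7, 14.3 and 8.43 CPM at Day 5 (log2 fold change 4.08, SE 0.35, adjusted p = 2.98e-04).

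Among the death genes and receptors, Eda2r, a receptor of the tumour necrosis factor family, was at 1.87, 1.74 and 0.774 CPM at baseline and 37.6, 57.4 and 33.9 CPM at Day 5 (log2 fold change 4.89, SE 0.38, adjusted p = 1.30e-04). Aen, an apoptosis-enhancing nuclease, was at 13.2, 14.9 and 19.0 CPM at baseline and 90.4, 93.1 and 70.4 CPM at Day 5 (log2 fold change 2.43, SE 0.20, adjusted p = 2.63e-04). The pore-forming Bcl-2 family member Bax was at 53.2, 53.4 and 46.1 CPM at baseline and 154, 164 and 118 CPM at Day 5 (log2 fold change 1.51, SE 0.19, adjusted p = 0.00163). All 3 genes were higher in every Day 5 library than in any baseline library. The BH3-only gene Bbc3 (Puma), which activates Bax, rose by 1.94 on the log2 scale (adjusted p = 0.00141), and Zfp365 rose by 3.26 (adjusted p = 0.00120). Of the third list, the thiamine transporter Slc19a2 rose by 2.16 (adjusted p = 0.00124), the ribosomal protein paralogue Rps27l by 1.40 (adjusted p = 0.00163) and the carnitine palmitoyltransferase Cpt1c by 1.46 (adjusted p = 0.00307). The Rps27l counts may share reads with its near copy Rps27. Ddb2 and Xpc, which recognise damaged DNA in excision repair and were chosen here after their values were seen, had log2 fold changes of 0.01 and -0.16 and were not called.

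**Figure D2:**
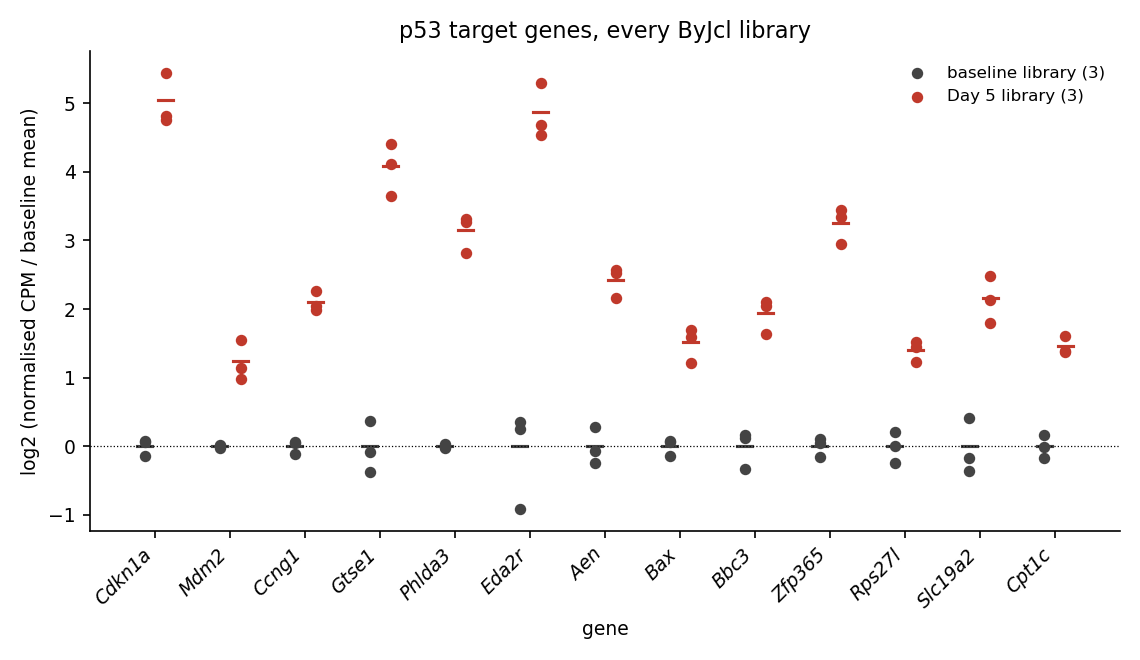
The log2 ratio of each library's CPM to the mean of the baseline libraries is plotted on the y axis for 13 p53 target genes on the x axis. Points are single libraries, 3 at baseline (dark) and 3 at Day 5 (red), and bars mark the log2 ratio of the group mean. In each of the 13 genes every Day 5 library lies above every baseline library, and the rise spans from 1.24 in Mdm2 to 5.04 in Cdkn1a on the log2 scale.

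The promoters of these genes were searched for the p53 response element, a pair of palindromic decamers each with a central C and G, here with no spacer, with the C and G of both decamers kept and at most 1 mismatch elsewhere. A window from 250 bases before to 50 bases after a gene's start was at hand for 45 of the 53 tested p53 targets. Of these, 4 held such an element, against 9 of 13269 tested genes (0.0678%) and 0.0814% of 27025 genes with a window. With up to 2 mismatches 5 of the 45 held one, against 0.422% of the tested genes. The lists hold genes already known as p53 targets, so these shares are no evidence about the response at Day 5. The element reads the same on both strands. The 4 windows are printed because their genes all rose at Day 5, with the element in capitals. They are RefSeq sequences of build GRCm38.p6, and each matched GRCm39 once and exactly, at the positions given.
Cdkn1a, chr17:29309703-29310002, plus strand: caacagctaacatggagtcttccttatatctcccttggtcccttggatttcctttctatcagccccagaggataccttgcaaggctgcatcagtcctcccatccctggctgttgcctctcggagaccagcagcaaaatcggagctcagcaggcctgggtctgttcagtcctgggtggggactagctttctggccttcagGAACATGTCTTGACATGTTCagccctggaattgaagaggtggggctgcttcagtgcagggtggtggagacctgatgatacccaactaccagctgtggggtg
Ccng1, chr11:40646064-40646363, minus strand: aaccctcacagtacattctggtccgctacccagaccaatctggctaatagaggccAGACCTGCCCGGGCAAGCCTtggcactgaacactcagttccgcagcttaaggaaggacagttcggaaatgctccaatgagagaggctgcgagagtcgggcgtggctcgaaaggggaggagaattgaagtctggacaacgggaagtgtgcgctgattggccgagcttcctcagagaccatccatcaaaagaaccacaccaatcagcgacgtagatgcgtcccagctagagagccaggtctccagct
Gtse1, chr15:85743897-85744196, plus strand: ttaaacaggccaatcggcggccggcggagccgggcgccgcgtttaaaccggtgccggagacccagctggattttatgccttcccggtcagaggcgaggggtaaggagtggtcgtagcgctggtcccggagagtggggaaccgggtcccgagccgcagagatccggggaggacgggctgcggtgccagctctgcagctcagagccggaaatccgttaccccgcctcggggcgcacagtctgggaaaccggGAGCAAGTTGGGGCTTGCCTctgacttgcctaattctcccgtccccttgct
Rps27l, chr9:66853445-66853744, plus strand: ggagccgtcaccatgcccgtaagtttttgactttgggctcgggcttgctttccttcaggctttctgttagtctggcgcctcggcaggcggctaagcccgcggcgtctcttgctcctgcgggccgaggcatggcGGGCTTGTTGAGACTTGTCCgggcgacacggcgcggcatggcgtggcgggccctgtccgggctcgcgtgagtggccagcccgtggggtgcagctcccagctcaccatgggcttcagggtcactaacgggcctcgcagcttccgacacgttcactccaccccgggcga
Counted from the annotated start to which each window belongs, and a gene can have several, the element begins 51 bases upstream in Cdkn1a, 195 in Ccng1, 117 in Rps27l and 1 in Gtse1. A match is a description of the sequence, and binding of p53 was not measured.

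The 10 genes called higher with the smallest adjusted p and no overlap were Inka2, Ccng1, Psrc1, Cdkn1a, Phlda3, Eda2r, Aen, Col5a3, Gtse1 and Cox6b2, of which 6 are on the p53 lists. Inka2, an inhibitor of the actin-regulating kinase PAK4, was at 5.18, 4.21 and 6.19 CPM at baseline and 67.5, 69.5 and 54.1 CPM at Day 5 (log2 fold change 3.61, SE 0.20, adjusted p = 1.60e-05). Psrc1, a protein of the mitotic spindle, was at 0.174, 0.423 and 0.332 CPM at baseline and 23.8, 29.9 and 19.9 CPM at Day 5 (log2 fold change 6.29, SE 0.37, adjusted p = 1.60e-05). Both were picked for a small adjusted p and groups that did not overlap. Col5a3, a chain of type V collagen, was at 3.21, 3.94 and 3.24 CPM at baseline and 62.0, 77.3 and 51.3 CPM at Day 5 (log2 fold change 4.20, SE 0.35, adjusted p = 2.63e-04). Cox6b2, a form of a cytochrome c oxidase subunit known from testis, rose by 2.62 on the log2 scale (adjusted p = 3.88e-04). Crct1, a cysteine-rich protein known from epidermis, had 2 counts over the baseline libraries and 3839 over the Day 5 libraries, a ratio of 2.1e+03 after scaling, with an exact 95% interval from 581 to 1.73e+04 that covers counting error only. Both baseline counts lay in baseline replicate 1.

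Of 20 tested genes for sensing DNA damage and for topoisomerases, 1 was called higher and 2 lower, against 5.75% and 4.83% of all genes, and the median log2 fold change was 0.04. Those called higher were 0, 0 and 0 without baseline replicates 1, 2 and 3, and 0, 0 and 2 without Day 5 replicates 1, 2 and 3, and those called lower 0, 0 and 1 without baseline replicates 1, 2 and 3, and 2, 0 and 0 without Day 5 replicates 1, 2 and 3. Top2b, the topoisomerase II of non-dividing cells, and Top2a, that of dividing cells, named here as targets of the drug after their values were seen, had log2 fold changes of 0.09 (adjusted p = 0.604) and 1.33 (adjusted p = 0.182). Trp53, which encodes p53, was at 44.4, 39.8 and 44.1 CPM at baseline and 88.7, 60.7 and 57.8 CPM at Day 5 (log2 fold change 0.69, SE 0.18, adjusted p = 0.0311), and this call was lost without baseline replicate 1 (0.0751), baseline replicate 2 (0.111), baseline replicate 3 (0.0752), Day 5 replicate 1 (0.0678) and Day 5 replicate 2 (0.0559), where the value in brackets is the adjusted p. Top1mt, the topoisomerase of mitochondria, which is not on the list, was at 206, 221 and 209.6 CPM at baseline and 49.9, 37.4 and 46.4 CPM at Day 5 (log2 fold change -2.25, SE 0.24, adjusted p = 0.00119). Of 35 cell cycle genes, 29 had a positive log2 fold change with a median of 0.40, and 1 was called higher and 1 lower, the latter a count of 0 without any of 5 single libraries and of 2 without Day 5 replicate 1, and 2 were called higher without Day 5 replicate 3. The one called higher was Rrm1, a subunit of ribonucleotide reductase, with a log2 fold change of 1.04 (adjusted p = 0.00146).

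Many podocyte genes fell. Of 64 tested members of 4 podocyte lists, 31 were called lower, against 4.83% of all genes, and 2 higher, and the median log2 fold change was -0.55. The number called lower was 26, 26 and 29 without baseline replicates 1, 2 and 3, and 32, 22 and 28 without Day 5 replicates 1, 2 and 3. In RNA from whole glomeruli, fewer podocytes and less RNA of these genes per podocyte cannot be told apart. By list, these were 8 of 10 transcription factors, 13 of 24 surface and secreted proteins, 5 of 13 slit diaphragm and junction genes and 5 of 17 cytoskeleton and foot process genes, at medians of -0.92, -0.76, -0.51 and -0.17. The list names are loose. The surface and secreted list holds the cyclin-dependent kinase inhibitor Cdkn1c, and the cytoskeleton list the transcriptional regulator Dach1. Without Day 5 replicate 2, 4 of the transcription factors and 8 of the surface and secreted proteins were called lower, and without baseline replicate 2 the transcription factors were 5.

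At the slit diaphragm, Nphs1 (chr7:30157740-30186675) encodes nephrin, the adhesion protein that bridges neighbouring foot processes. It was at 1629.9, 1449 and 1603 CPM at baseline and 883, 495 and 552 CPM at Day 5 (log2 fold change -1.28, SE 0.24, adjusted p = 0.00853). Day 5 replicate 1 was the highest treated library and still lay below every baseline library. The scaffold Magi2 was at 336, 309.7 and 277 CPM at baseline and 73.3, 53.01 and 51.1 CPM at Day 5 (log2 fold change -2.38, SE 0.28, adjusted p = 0.00142). The adaptor Cd2ap fell by 0.94 on the log2 scale (adjusted p = 0.00726). Kirrel, which encodes the partner of nephrin in the slit diaphragm and was chosen here after its value was seen, had a log2 fold change of 0.05 and was not called (adjusted p = 0.863).

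Among the transcription factors, Wt1, which podocytes need for their differentiated state, was at 514, 465 and 513 CPM at baseline and 269, 214 and 218 CPM at Day 5 (log2 fold change -1.09, SE 0.20, adjusted p = 0.00756). The groups were far apart and did not overlap. The forkhead factor Foxc2 fell by 1.32 on the log2 scale (adjusted p = 0.00654). Tcf21, a basic helix-loop-helix factor, was at 277, 287 and 312 CPM at baseline and 199, 118 and 141 CPM at Day 5 (log2 fold change -0.93, SE 0.19, adjusted p = 0.0138), and its call was lost without Day 5 replicate 2 (0.0584). Foxc1 and Klf15, chosen after their values were seen, had log2 fold changes of 0.07 and 0.10 and were the 2 factors that were not called.

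Of the cytoskeleton, Synpo (synaptopodin), an actin-binding protein of the foot process, was at 3125, 3069 and 2869 CPM at baseline and 1255, 925 and 936 CPM at Day 5 (log2 fold change -1.54, SE 0.21, adjusted p = 0.00234). Plce1, a phospholipase C of podocytes, fell by 1.36 and Arhgap24, which inactivates Rac1, by 1.47 on the log2 scale (adjusted p = 0.00307 and 0.00403). Dach1, a transcriptional regulator on the same list, fell by 1.26 (adjusted p = 0.00409). Actn4 and Myh9, which many cell types express and which were chosen after their values were seen, had log2 fold changes of 0.21 and 0.34 and were not called.

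Among the surface and secreted proteins were the podocyte genes with the largest decreases. Thsd7a (chr6:12311609-12749439), a foot process membrane protein, was at 1076, 905 and 928 CPM at baseline and 189, 123.5 and 144 CPM at Day 5 (log2 fold change -2.67, SE 0.33, adjusted p = 0.00163). Sema3g, a secreted semaphorin, was at 4631, 3716 and 3709 CPM at baseline and 816, 523 and 635 CPM at Day 5 (log2 fold change -2.61, SE 0.28, adjusted p = 0.00120). In both, the highest Day 5 library lay far below the lowest baseline library. Vegfa, the growth factor by which podocytes maintain the glomerular endothelium, was at 1726, 1561 and 1849 CPM at baseline and 609, 468 and 588 CPM at Day 5 (log2 fold change -1.62, SE 0.20, adjusted p = 0.00160). Podxl (podocalyxin), the main sialoprotein of the podocyte surface, was at 9015, 7772 and 8401 CPM at baseline and 5221, 3782 and 4337 CPM at Day 5 (log2 fold change -0.92, SE 0.18, adjusted p = 0.0101). The call for Podxl was lost without Day 5 replicate 2 (0.0521).

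By edgeR 2 podocyte genes were called higher, by DESeq2 5, and the 2 described here were chosen because of that direction. Cdkn1c encodes p57, a cyclin-dependent kinase inhibitor that mature podocytes express. It was at 1297, 1113 and 1589 CPM at baseline and 3110.2, 2723 and 2207 CPM at Day 5 (log2 fold change 1.01, SE 0.18, adjusted p = 0.00670). Inf2, a formin that remodels actin, was at 303, 303 and 299.7 CPM at baseline and 458, 481 and 440.1 CPM at Day 5 (log2 fold change 0.61, SE 0.15, adjusted p = 0.0256), and its call was lost without baseline replicate 1 (0.0746), baseline replicate 2 (0.0807), baseline replicate 3 (0.0737) and Day 5 replicate 2 (0.0906) and also with all 12 libraries (0.0882).

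**Figure D3:**
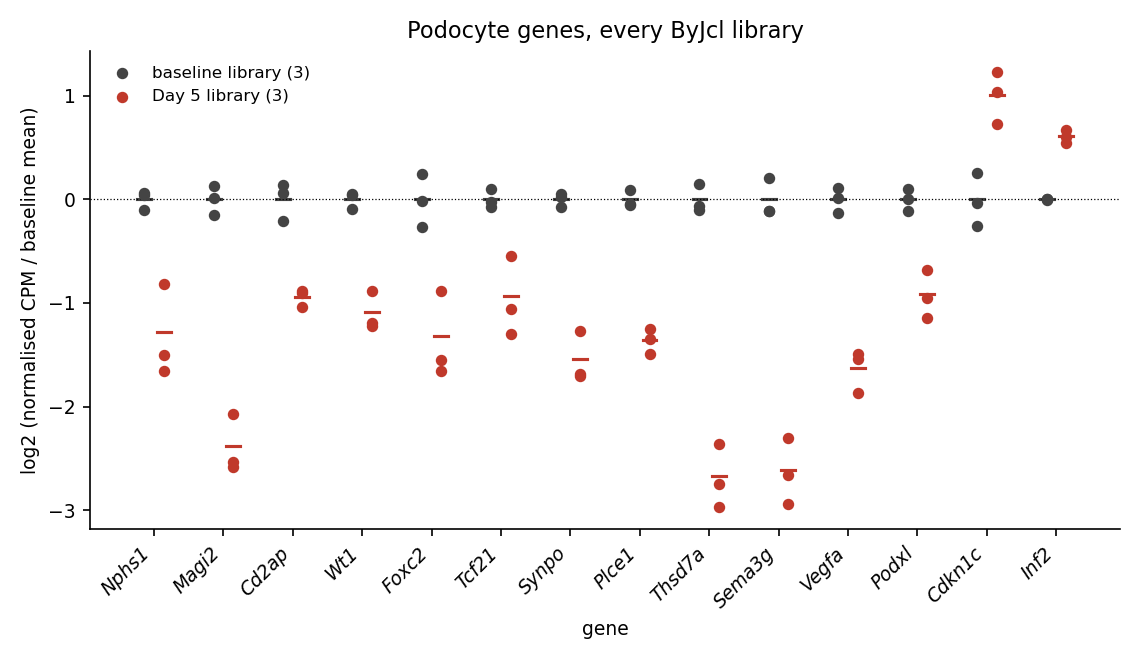
The log2 ratio of each library's CPM to the mean of the baseline libraries is plotted on the y axis for 14 podocyte genes on the x axis. Points are single libraries, 3 at baseline (dark) and 3 at Day 5 (red), and bars mark the log2 ratio of the group mean. Every Day 5 library lies below every baseline library in 12 genes, the lowest being Thsd7a at -2.67, and above in Cdkn1c and Inf2.

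Tubule RNA in the preparations varied more between libraries of a group than between the groups. A set of 7 podocyte genes, among them Wt1, Tcf21, Synpo, Podxl and Nphs1, was together at 19733, 17186 and 17860 CPM at baseline and at 10009, 6687 and 7630 CPM at Day 5. Divided by the summed proximal tubule genes, they gave ratios of 11.6, 2.54 and 3.43 at baseline and 6.58, 2.27 and 1.42 at Day 5. The mean log2 ratio was 2.22 ± 1.16 (SD, n = 3) at baseline and 1.47 ± 1.13 (SD, n = 3) at Day 5, a difference of -0.75 (two-sided exact permutation test, p = 0.5, where 3 libraries against 3 cannot go below 0.1). With all members of the 4 podocyte lists in place of the 7 genes the difference was -0.17, and with the median of the tubule genes in place of their sum it was -1.08. None of the 20 proximal tubule genes and none of 17 distal nephron genes was called by edgeR, while in each list 1 gene was lower at an unadjusted p below 0.05 and DESeq2 called 1 lower. Of all genes 5.75% were called higher and 4.83% lower, shares at which lists this short would hold few calls. With the tubule sum as a covariate, chosen after the data were seen, 2220 genes were called, among them 96.2% of the 1800.

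**Figure D4:**
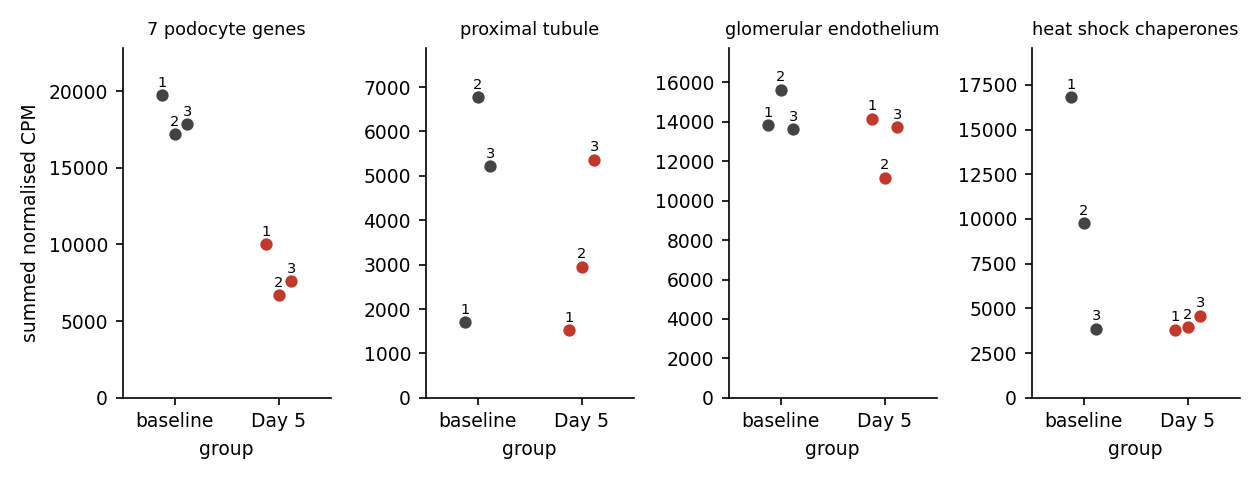
Summed CPM per library on the y axis for 7 podocyte genes, the proximal tubule list, the glomerular endothelium list and the heat shock chaperones, with the group on the x axis. Points are single libraries and carry their replicate number. The podocyte sum lies between 6687 and 10009 CPM in all 3 Day 5 libraries, below every baseline library, whereas the tubule and endothelial sums overlap between the groups.

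Of 26 genes of the glomerular endothelium, 6 were called higher and 4 lower, against 5.75% and 4.83% of all genes, with a median of 0.03. The defining genes Pecam1, Cdh5 and Emcn, named here after their values were seen, had log2 fold changes of 0.29, 0.13 and -0.32 and were not called. The surface antigens Ly6c1 and Ly6a, which interferon also raises, were the members with the largest increases. Ly6c1 was at 151, 173 and 170.0 CPM at baseline and 401, 637 and 597 CPM at Day 5 (log2 fold change 1.73, SE 0.17, adjusted p = 7.74e-04), and Ly6a rose by 2.09 (adjusted p = 0.00120), with the reservation that near copies of these genes can share reads. Cldn5, a tight junction protein of endothelium that podocytes also express, was at 442, 304 and 284 CPM at baseline and 157, 77.6 and 90.5 CPM at Day 5 (log2 fold change -1.67, SE 0.29, adjusted p = 0.00652). The endothelial counts called higher were 2, 3 and 3 without baseline replicates 1, 2 and 3, and 4, 4 and 7 without Day 5 replicates 1, 2 and 3. Those called lower were 1, 1 and 3 without baseline replicates 1, 2 and 3, and 4, 1 and 2 without Day 5 replicates 1, 2 and 3.

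Of 18 mesangial and pericyte genes, 1 was called higher (5.75% of all genes were), at a median of -0.10 over the list. Without Day 5 replicate 3, 2 were called higher and 1 lower. The gene called was Serpine2 (protease nexin 1), at 537, 500.1 and 488 CPM at baseline and 942, 875 and 974 CPM at Day 5 (log2 fold change 0.87, SE 0.12, adjusted p = 0.00285). Of 13 parietal epithelial genes 3 were called higher, among them Cd44, the hyaluronan receptor that activated parietal cells express, at 10.7, 12.5 and 13.9 CPM at baseline and 24.1, 29.6 and 21.8 CPM at Day 5 (log2 fold change 1.02, SE 0.18, adjusted p = 0.00679). Of 20 myeloid genes 2 were called higher, against the same share of all genes, and the count was 1, 0 and 1 without baseline replicates 1, 2 and 3, and 1, 0 and 1 without Day 5 replicates 1, 2 and 3. None of 14 lymphocyte genes was called by edgeR or DESeq2, and 1 had an unadjusted p below 0.05.

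Many genes of the contractile and cortical cytoskeleton rose. Of 25 tested genes for tropomyosins, actin and associated proteins, 13 were called higher, against 5.75% of all genes, all 25 had a positive log2 fold change, and the median was 0.55. The number called was 12, 10 and 9 without baseline replicates 1, 2 and 3, and 12, 9 and 15 without Day 5 replicates 1, 2 and 3. The list also holds Lgals1 (galectin-1), a secreted lectin of mesenchymal cells and not a part of the cytoskeleton. Lgals1 was at 29.2, 28.5 and 27.6 CPM at baseline and 90.2, 121 and 81.4 CPM at Day 5 (log2 fold change 1.78, SE 0.20, adjusted p = 0.00120). Myl12a, a regulatory light chain of non-muscle myosin, was at 472, 398 and 459 CPM at baseline and 1114, 1240.4 and 1082 CPM at Day 5 (log2 fold change 1.37, SE 0.17, adjusted p = 0.00163). Tagln, an actin-bundling protein, was at 116, 105 and 159 CPM at baseline and 296, 355 and 290.2 CPM at Day 5 (log2 fold change 1.31, SE 0.16, adjusted p = 0.00163). The groups did not overlap in any of these genes. Of 10 tested smooth muscle and juxtaglomerular genes, 1 was called higher, Tagln, and 1 lower, Mylk, against 5.75% and 4.83% of all genes. Mylk fell by 0.44 on the log2 scale (adjusted p = 0.0432). When 1 library was left out, its call was kept only without Day 5 replicate 1 (0.0473). Acta2 and Myh11, the defining genes of smooth muscle, named after their values were seen, had log2 fold changes of 0.11 and 0.11 and were not called.

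In the integrin and focal adhesion list, 7 of 29 genes were called higher and 3 lower, against 5.75% and 4.83% of all genes. The genes called lower were Itgb5, an integrin beta chain, Parva (parvin alpha), a partner of integrin-linked kinase, and Itga6, a laminin-binding integrin chain. Itgb5 was at 904, 796 and 829 CPM at baseline and 452, 389 and 421 CPM at Day 5 (adjusted p = 0.00307). Parva fell by 0.95 and Itga6 by 0.59 on the log2 scale (adjusted p = 0.00604 and 0.00785). Itgb1, the beta chain shared by most matrix-binding integrins, rose by 0.67 (adjusted p = 0.00999), a call that was lost without baseline replicate 2 (0.0538). The number called higher was 2, 2 and 3 without baseline replicates 1, 2 and 3, and 7, 2 and 6 without Day 5 replicates 1, 2 and 3.

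Of 24 genes for TGF-beta, the transcriptional coactivator YAP and their targets and feedback inhibitors, 3 were called higher and 1 lower, against 5.75% and 4.83% of all genes, at a median of -0.07. Those called higher were 1, 1 and 2 without baseline replicates 1, 2 and 3, and 3, 1 and 4 without Day 5 replicates 1, 2 and 3, and DESeq2 called 6. Yap1, which encodes YAP, was the one called lower, at 330.3, 313 and 282 CPM at baseline and 224, 217 and 217 CPM at Day 5 (log2 fold change -0.49, SE 0.10, adjusted p = 0.0138), a call lost without baseline replicate 1 (0.0593), baseline replicate 2 (0.0542) and Day 5 replicate 2 (0.0547). Ankrd1, a nuclear and sarcomeric protein and a standard readout of YAP, was at 11.9, 8.78 and 17.2 CPM at baseline and 35.8, 55.9 and 58.1 CPM at Day 5 (log2 fold change 1.98, SE 0.30, adjusted p = 0.00342).

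Of 22 genes for collagen IV, laminins and other basement membrane proteins, 2 were called higher and 2 lower, against 5.75% and 4.83% of all genes, and the median was 0.00. Those called lower were 0, 0 and 1 without baseline replicates 1, 2 and 3, and 3, 0 and 0 without Day 5 replicates 1, 2 and 3, and 1 was called higher without baseline replicate 1 or baseline replicate 3. Col4a2 and Col4a1, the collagen IV chains made by mesangium and endothelium, were called higher. Col4a2 was at 440.2, 500.4 and 389.8 CPM at baseline and 1364, 989 and 776 CPM at Day 5 (log2 fold change 1.23, SE 0.25, adjusted p = 0.0122). Col4a1 rose by 0.98 (adjusted p = 0.0155), and its call was lost without baseline replicate 1 (0.0597) and baseline replicate 3 (0.0565). Col4a3, a chain of the mature network that podocytes make, was at 2118, 1704 and 1713 CPM at baseline and 1112, 1077 and 1050.2 CPM at Day 5 (log2 fold change -0.77, SE 0.18, adjusted p = 0.0213), a call lost without baseline replicate 1 (0.0772), baseline replicate 2 (0.0524), Day 5 replicate 2 (0.0796) and Day 5 replicate 3 (0.0522) and also with all 12 libraries (0.117).

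Of 27 tested genes for interstitial matrix and crosslinking, 6 were called higher and 2 lower, against 5.75% and 4.83% of all genes, at a median of -0.05. Those called higher were 5, 4 and 4 without baseline replicates 1, 2 and 3, and 7, 4 and 5 without Day 5 replicates 1, 2 and 3, and those called lower 1, 1 and 1 without baseline replicates 1, 2 and 3, and 4, 1 and 1 without Day 5 replicates 1, 2 and 3. Loxl1, a lysyl oxidase that crosslinks elastin, was at 14.8, 11.6 and 15.8 CPM at baseline and 29.0, 24.5 and 26.5 CPM at Day 5 (log2 fold change 0.92, SE 0.15, adjusted p = 0.00397), and Eln (elastin) rose by 0.89 (adjusted p = 0.00601). Vcan (versican), a large proteoglycan, was below 1 CPM in every baseline library and rose by 2.98 (adjusted p = 0.00662). Col1a2, a chain of type I collagen, was at 518, 431 and 440.3 CPM at baseline and 144, 81.2 and 86.1 CPM at Day 5 (log2 fold change -2.16, SE 0.24, adjusted p = 0.00120). Its partner chain Col1a1, named after its value was seen, had a log2 fold change of -0.17 and was not called.

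Of 18 matrix proteases and inhibitors, 7 were called higher, against 5.75% of all genes. Mmp10, a stromelysin, had 2 counts over the baseline libraries and 550 over the Day 5 libraries, a ratio of 301 with an exact 95% interval from 82.9 to 2.49e+03 for counting error only. Both baseline counts lay in baseline replicate 2. Adamts4, a proteoglycan-cleaving protease, was at 0.217, 0.423 and 0.589 CPM at baseline and 2.74, 7.95 and 2.07 CPM at Day 5 (log2 fold change 3.36, SE 0.59, adjusted p = 0.00643), and its log2 fold change was 2.54 without Day 5 replicate 2, the highest library. The counts of this list were 4, 3 and 4 without baseline replicates 1, 2 and 3, and 5, 5 and 7 without Day 5 replicates 1, 2 and 3. Of 13 kidney injury markers, 3 were called higher, against the same share of all genes, 11 had a positive log2 fold change, and the median was 1.52. The count was 3, 1 and 3 without baseline replicates 1, 2 and 3, and 4, 2 and 3 without Day 5 replicates 1, 2 and 3. The genes called were Cd44, the protease inhibitor Timp1 and the chemokine Cxcl1. Timp1 rose by 2.47 (adjusted p = 0.0134), a call lost without baseline replicate 2 (0.0601). Cxcl1 rose by 1.72 (adjusted p = 0.0250), a call lost without baseline replicate 2 (0.0794) and Day 5 replicate 2 (0.0812). The tubular markers Havcr1 (KIM-1) and Lcn2 (NGAL) were not called, with log2 fold changes of 1.65 and 1.52 (adjusted p = 0.133 and 0.320), and both stayed below 3 CPM in all 6 libraries. Havcr1 was at 2.30 without baseline replicate 3 and was called with a replicate block (0.0462) and with the tubule sum as a covariate (0.0182), and Lcn2 was at 2.19 without baseline replicate 3 and 0.30 without Day 5 replicate 2.

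Most interferon-stimulated genes rose. Of 29 tested, 18 were called higher, against 5.75% of all genes, all 29 had a positive log2 fold change, and the median was 1.05. The number called was 9, 13 and 10 without baseline replicates 1, 2 and 3, and 11, 12 and 18 without Day 5 replicates 1, 2 and 3. Gbp2, a guanylate-binding protein of antimicrobial defence, was at 25.2, 24.8 and 20.4 CPM at baseline and 131, 133 and 76.5 CPM at Day 5 (log2 fold change 2.28, SE 0.34, adjusted p = 0.00327). Day 5 replicate 3 was the lowest treated library and still lay above every baseline library. Cxcl10, a chemokine induced by interferon, was at 1.21, 2.16 and 1.58 CPM at baseline and 45.01, 24.4 and 21.0 CPM at Day 5 (log2 fold change 4.19, SE 0.61, adjusted p = 0.00305).

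Of 16 tested genes for antigen presentation, 10 were called higher, which apart from H2-DMa serve MHC class I, and 2 class II genes were called lower, against 5.75% and 4.83% of all genes. Those called lower were 2, 1 and 1 without baseline replicates 1, 2 and 3, and 4, 1 and 1 without Day 5 replicates 1, 2 and 3. The peptide transporter Tap1 was at 24.9, 26.8 and 22.8 CPM at baseline and 149.7, 101 and 62.7 CPM at Day 5 (log2 fold change 2.07, SE 0.38, adjusted p = 0.00746), and the class I heavy chain H2-K1 at 254, 269 and 229 CPM at baseline and 1051, 684 and 568 CPM at Day 5 (log2 fold change 1.62, SE 0.30, adjusted p = 0.00796), where near-identical class I genes can share reads. The class II chain H2-Eb1 was at 11.2, 16.1 and 20.9 CPM at baseline and 7.32, 4.05 and 5.73 CPM at Day 5 (log2 fold change -1.49, SE 0.27, adjusted p = 0.00711). The class II invariant chain Cd74 fell by 1.17 on the log2 scale (adjusted p = 0.0221), a call lost without baseline replicate 2 (0.0740), baseline replicate 3 (0.0785), Day 5 replicate 2 (0.0972) and Day 5 replicate 3 (0.0582). The numbers called higher were 5, 4 and 4 without baseline replicates 1, 2 and 3, and 6, 6 and 10 without Day 5 replicates 1, 2 and 3. Ptprc (CD45), carried by all leukocytes and named after its value was seen, had a log2 fold change of -0.39 and was not called.

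Of 18 chemokines and cytokines, 7 were called higher, against 5.75% of all genes, with a median of 1.18. Lif, a cytokine of the interleukin-6 family, was at 6.07, 9.38 and 8.97 CPM at baseline and 25.4, 37.2 and 30.1 CPM at Day 5 (log2 fold change 1.92, SE 0.25, adjusted p = 0.00185). The counts were 4, 2 and 4 without baseline replicates 1, 2 and 3, and 4, 2 and 4 without Day 5 replicates 1, 2 and 3. Of 23 immediate early genes, 15 were called higher, against the same share of all genes, with a median of 0.81. The small Maf factor Maff was at 4.12, 7.18 and 12.0 CPM at baseline and 50.3, 90.1 and 70.8 CPM at Day 5 (log2 fold change 3.18, SE 0.37, adjusted p = 0.00142), and Myc was at 2.34, 2.92 and 3.67 CPM at baseline and 6.24, 14.4 and 9.70 CPM at Day 5 (log2 fold change 1.76, SE 0.32, adjusted p = 0.00785). Counts of immediate early genes were 9, 7 and 14 without baseline replicates 1, 2 and 3, and 13, 7 and 15 without Day 5 replicates 1, 2 and 3.

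Heat shock chaperones varied widely within the baseline group. Their summed level was 16822, 9781 and 3859.6 CPM at baseline and 3803, 3965 and 4602 CPM at Day 5, so baseline replicate 3 lay within the range of the treated libraries. Of 14 genes, 3 were called lower and 1 higher, against 4.83% and 5.75% of all genes, with a median of -1.02. The numbers called lower were 0, 0 and 8 without baseline replicates 1, 2 and 3, and 0, 0 and 3 without Day 5 replicates 1, 2 and 3. Hspb1, a small heat shock protein, was at 773, 702 and 287 CPM at baseline and 138, 159 and 244 CPM at Day 5 (log2 fold change -1.70, SE 0.39, adjusted p = 0.0200), and its call was lost without baseline replicate 1 (0.0664), baseline replicate 2 (0.0704), Day 5 replicate 1 (0.0604) and Day 5 replicate 2 (0.0881). Cryab, a small heat shock protein of the lens and muscle, moved the other way, at 199, 165 and 162 CPM at baseline and 231, 281 and 267 CPM at Day 5 (log2 fold change 0.57, SE 0.12, adjusted p = 0.0138), a call lost without baseline replicate 2 (0.0630), baseline replicate 3 (0.0537) and Day 5 replicate 2 (0.0604).

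Of 23 Nrf2 target and antioxidant genes 6 were called higher, against 5.75% of all genes, at a median of 0.13. The metal-binding metallothioneins Mt2 and Mt1 were among them. Mt2 was at 2.97, 4.15 and 3.00 CPM at baseline and 18.4, 64.1 and 16.8 CPM at Day 5 (log2 fold change 3.29, SE 0.49, adjusted p = 0.00325), with Day 5 replicate 2 far above the other treated libraries and a log2 fold change of 2.38 without it, and Mt1 rose by 1.85 (adjusted p = 0.00522). Txnrd1, thioredoxin reductase, rose by 1.03 (adjusted p = 0.00325). The list's counts were 3, 3 and 4 without baseline replicates 1, 2 and 3, and 4, 3 and 5 without Day 5 replicates 1, 2 and 3. Hmox1 and Nqo1, widely used Nrf2 targets named after their values were seen, had log2 fold changes of 0.24 and 0.77 and were not called. Of 24 genes of the unfolded protein and integrated stress responses, 7 were called higher and 2 lower, against 5.75% and 4.83% of all genes, at a median of 0.08. Those called lower were 0, 0 and 1 without baseline replicates 1, 2 and 3, and 0, 0 and 4 without Day 5 replicates 1, 2 and 3. Psat1, an enzyme of serine synthesis, was at 4.29, 4.74 and 5.86 CPM at baseline and 16.9, 17.8 and 12.2 CPM at Day 5 (log2 fold change 1.65, SE 0.26, adjusted p = 0.00409), and Sesn2, a stress-inducible inhibitor of mTORC1 and also a p53 target, at 8.55, 17.8 and 15.5 CPM at baseline and 48.9, 52.7 and 47.8 CPM at Day 5 (log2 fold change 1.84, SE 0.31, adjusted p = 0.00572). None of 15 genes for anthracycline transport and reduction was called by edgeR, with 7 at an unadjusted p below 0.05 and 3 called higher by DESeq2. Without Day 5 replicate 1 edgeR called 2 of them higher and 1 lower, without Day 5 replicate 3 it called 1 higher, and with the tubule sum as a covariate 4.

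**Figure D5:**
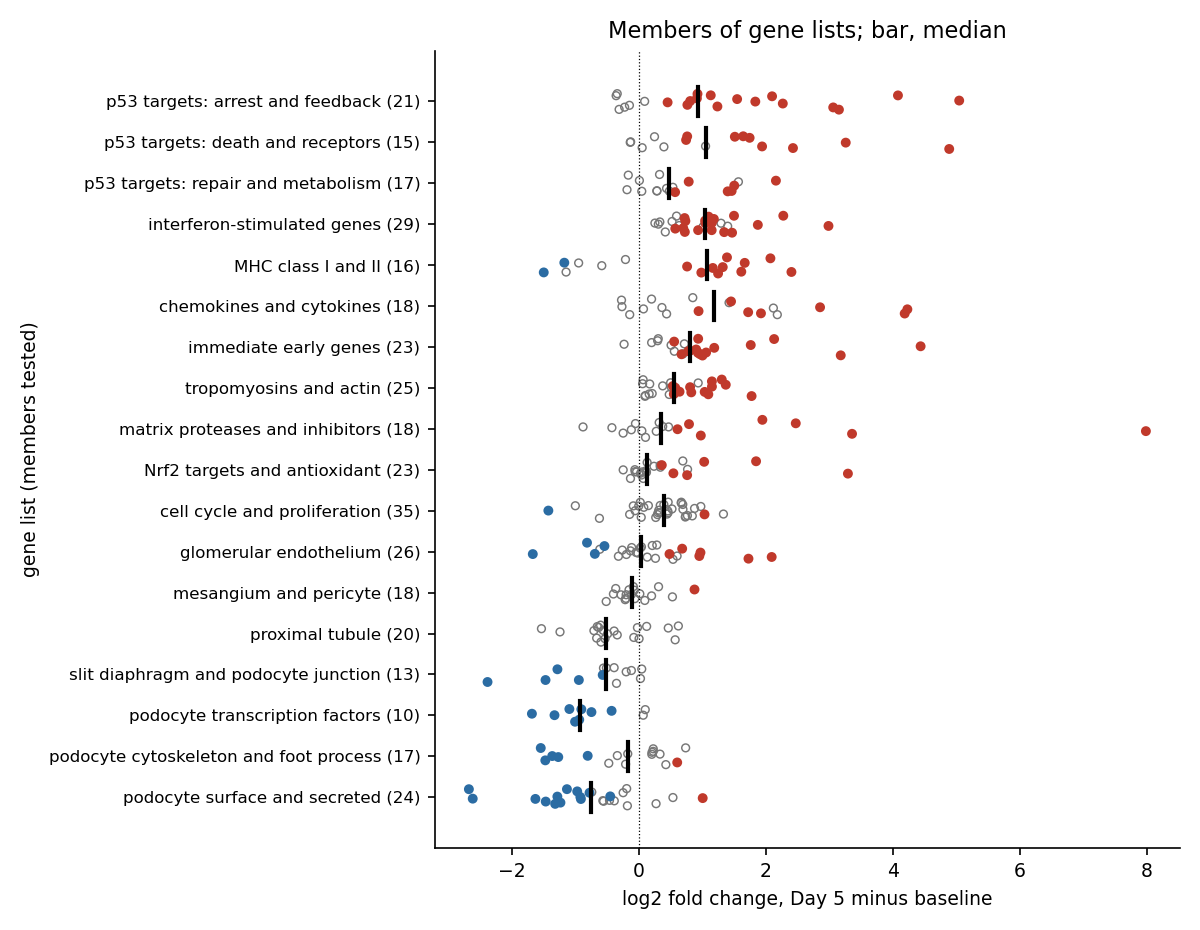
Log2 fold changes, Day 5 minus baseline, on the x axis for the tested members of 18 gene lists on the y axis, with the number tested in brackets. Each point is a gene, filled red where called higher, filled blue where called lower and open where not called, and black bars are medians. Medians run from -0.92 in podocyte transcription factors to 1.18 in chemokines and cytokines, against 0.01 over all genes.

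The genes called lower with the smallest adjusted p were Ankrd44, Pnmal2, Top1mt, Sema3g, Trabd2b, Wnk2, Col1a2, Peli3, Aagab and Marveld1. Ankrd44, a subunit of protein phosphatase 6, was at 256, 273 and 247 CPM at baseline and 122.7, 116 and 128 CPM at Day 5 (log2 fold change -1.08, SE 0.11, adjusted p = 7.78e-04). Trabd2b, a membrane protease that inactivates Wnt proteins, was at 173, 165 and 161 CPM at baseline and 59.9, 59.9 and 61.9 CPM at Day 5 (log2 fold change -1.46, SE 0.16, adjusted p = 0.00120). In both, libraries of a group lay within a narrow range. Ranked by size were the genes called lower, with no overlap and 5 CPM or more at baseline. Lypd1, a membrane-anchored protein of the Ly6 family, led them, at 52.6, 44.7 and 46.0 CPM at baseline and 3.10, 0.919 and 2.18 CPM at Day 5 (log2 fold change -4.53, SE 0.67, adjusted p = 0.00325). Next by log2 fold change were Kcna6, a voltage-gated potassium channel subunit, at -4.05, and Creg2, a secreted glycoprotein, at -3.60 (adjusted p = 0.00660 and 0.00348), and Kcna6 was at -5.04 without Day 5 replicate 2. Alas2, the haem synthesis enzyme of red cell precursors, was at 5.83, 4.49 and 8.31 CPM at baseline and 0.177, 0.506 and 0.951 CPM at Day 5 (log2 fold change -3.50, SE 0.47, adjusted p = 0.00201), with a log2 fold change of -4.16 without Day 5 replicate 3, and 2 of 5 tested erythroid genes were called lower, against 4.83% of all genes (4 by DESeq2, and 1 by edgeR without baseline replicate 3). Mgat5b, a glycosyltransferase, and Opcml, a cell adhesion protein, were next at -3.24 and -3.14 (adjusted p = 0.00185 and 0.00185).

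The ByJcl response was set beside that of AJcl mice, of which 3 baseline libraries and 2 of 3 Day 5 libraries were used, since the study left 1 out for low glomerular purity. No gene's response differed between the substrains by edgeR (0 of 17002 called, smallest adjusted p 0.62, and 1363 at an unadjusted p below 0.05), and DESeq2 called 23. In AJcl 53 genes were called (0.312%), 52 higher and 1 lower, and 49 of them were also called in ByJcl in the same direction, which is 92.5% of the AJcl calls and 2.72% of the ByJcl calls. Of all tested genes, 10.6% were called in ByJcl, beside the 92.5% of the AJcl calls. Of the 1800 genes called in ByJcl, 1645 had a log2 fold change of the same sign in AJcl, and the share over all tested genes is not given here. The AJcl baseline and Day 5 counts likewise came separately. A difference between the sources therefore cannot be told apart from a shared response. The median log2 fold change of the p53 targets was 0.79 in ByJcl and 0.48 in AJcl, and that of the podocyte genes -0.55 and -0.18. Cdkn1a rose by 5.04 in ByJcl and 3.94 in AJcl, a difference of 1.11 ± 0.39 (SE) with an adjusted p of 0.620. Inka2 rose by 3.61 and 3.62. Nphs1 had log2 fold changes of -1.28 in ByJcl and -0.25 in AJcl, a difference of -1.03 ± 0.35 (SE) with an adjusted p of 0.620. The smallest adjusted p belonged to several genes alike, among them Col5a3, with 4.20 in ByJcl and 1.32 in AJcl, and Ankrd44, with -1.08 and -0.32.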

How the data were processed

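Poly(A)-selected, strand-specific paired-end libraries were made by the submitters from bead-isolated glomeruli. The authors used Trimmomatic for trimming, STAR for alignment to GRCm39 and featureCounts for counting. The deposited values are raw counts for 26264 gene symbols in each library. The annotation and the strand setting of the counting are not given in the sources used here, so overlapping antisense genes cannot be told apart. Between 78.1% and 81.9% of counts from 1 to 49 are even numbers, so halved counts were run as an alternative. Groups were taken from the labels, whose replicates are separate samples of a group.

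Counts were analysed with edgeR 4.0.16 (quasi-likelihood test) in R 4.3.3, with 4 groups, 11 libraries, filterByExpr, TMM scaling and Benjamini-Hochberg adjustment over all tested genes. Calls lie below 0.05. DESeq2 1.42.0 was an alternative. At these depths 3 counts equal 0.0549 to 0.0684 CPM, and intervals cover counting error only and are too narrow if both mates of a pair were counted. Tables and figures used Python 3.11.15, pandas 2.3.3 and matplotlib 3.10.9.

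Named genes are, per direction, the 10 calls with the smallest adjusted p and no overlap, the 8 with the largest change at 5 CPM or more, up to 4 members per gene list with the smallest adjusted p, further markers fixed by name, and 3 of the interaction. Other genes are said to be chosen after their values were seen. Lists and genes were chosen with earlier results of these data known. Some named genes are not reported here. The mitochondrial DNA-encoded list had no gene in the tables.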

Additional observations from a re-analysis of the deposited data

How the results depend on the processing

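Each of the 140 genes recomputed under the alternatives kept its direction in all of them, and most genes named after their values were seen were not recomputed. The alternatives were DESeq2, RLE size factors, total counts without TMM, 2 other filters, all 12 libraries, halved counts, the replicate block, the ByJcl libraries alone and each ByJcl library left out, and, chosen after seeing the data, the tubule sum as a covariate. With all 12 libraries 1197 genes were called, 464 of them lower, and DESeq2 called 1521 genes higher. For the difference between substrains DESeq2 called 23 genes and edgeR none. Leaving out 1 library gave between 680 and 1611 calls, 380 to 976 of them higher and 300 to 719 lower, and 416 to 783 with a fold above 2. Fewer samples were fitted there. The labels give no pairs across the groups, and the main fit used none. The deviations of same-numbered libraries correlated at 0.554, -0.0145 and 0.33 across genes. Baseline replicates 1, 2 and 3 correlated best with Day 5 replicates 1, 3 and 3. Shared handling of same-numbered libraries was not tested. A fit with a replicate block called 1592 genes, among them 81.1% of the 1800. Of the gene lists, the 6 ByJcl libraries alone gave 1 endothelial and 1 clock gene called lower and 4 basement membrane genes called higher, DESeq2 and the tubule covariate gave 6 and 7 heat shock genes called lower, and the replicate block gave 1 of these and 4 chemokines and cytokines called higher. Without baseline replicate 1, and without Day 5 replicate 3, 1 proximal tubule gene was called lower, and with the covariate, which is the sum of these genes, 4 were called higher and 2 lower. The marker ratio lay between -1.37 and -0.09 on the log2 scale when 1 library was left out, and the exact test of 3 libraries against 3 or fewer cannot reach 0.05.

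The 3 ByJcl libraries per group limit the precision. The p-values measure only the spread between libraries of a group, estimated jointly from the 11 libraries of 4 groups and moderated across genes.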

Other observations

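Of 18 circadian clock genes 2 were called higher and 4 lower, against 5.75% and 4.83% of all genes. Per3, a repressor of the clock, was at 159, 179.9 and 129 CPM at baseline and 76.4, 54.2 and 55.2 CPM at Day 5 (log2 fold change -1.33, SE 0.19, adjusted p = 0.00295), while Arntl (Bmal1), its activator, was at 1.04, 2.37 and 2.17 CPM at baseline and 2.92, 6.16 and 10.7 CPM at Day 5 (log2 fold change 1.82, SE 0.49, adjusted p = 0.0371), a call lost without baseline replicate 1 (0.111), baseline replicate 2 (0.0791), baseline replicate 3 (0.0817), Day 5 replicate 2 (0.0926) and Day 5 replicate 3 (0.106) and also with the 6 ByJcl libraries alone (0.0626). The clock genes called higher were 0, 1 and 0 without baseline replicates 1, 2 and 3, and 3, 0 and 0 without Day 5 replicates 1, 2 and 3, and those called lower 1, 1 and 4 without baseline replicates 1, 2 and 3, and 3, 1 and 1 without Day 5 replicates 1, 2 and 3. The hour of kidney collection is not given in the sources used here, and its part in the result was not tested. Of 32 tested histone genes 4 were called lower, against 4.83% of all genes, at a median of -0.34. The count was 1, 1 and 3 without baseline replicates 1, 2 and 3, and 2, 1 and 3 without Day 5 replicates 1, 2 and 3. These RNAs mostly lack the poly(A) tail by which the libraries were selected. The cytosolic ribosomal protein genes and the nuclear genes for oxidative phosphorylation had positive log2 fold changes in 73 of 83 and 62 of 67 tested members, with 2 and 1 called higher, against 5.75% of all genes, at medians of 0.11 and 0.20. The first count was 2, 1 and 1 without baseline replicates 1, 2 and 3, and 1, 1 and 4 without Day 5 replicates 1, 2 and 3, and the second was 0 or 1 when 1 library was left out and 6 with the 6 ByJcl libraries alone.

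Genes with no count at baseline make up a part of the increases, and the genes named here were chosen after their values were seen. Over all 26264 genes, 443 had no count in any ByJcl baseline library and counts in every Day 5 library, and 25 showed the opposite. The ByJcl baseline libraries were the deeper ones. In AJcl, over all 3 Day 5 libraries, the numbers were 165 and 19. Of the tested genes, 118 had no count at ByJcl baseline and 62 of these were called higher, with 17 to 160 counts over the 3 Day 5 libraries (median 43.5), and 32 of the 62 also had no count in any AJcl baseline library. Such genes passed the filter only through other groups and can only be called higher. The 62 of 118 therefore cannot be set against the 5.75% of all genes. In the opposite case, 3 tested genes had no count at Day 5 and 0 were called. Among the 62 are Gad2 and Gabrb2, genes of inhibitory neurons, at 16, 22 and 4 and at 10, 28 and 8 counts at Day 5, and Rag1, the recombinase of lymphocyte precursors, at 12, 22 and 6. Day 5 replicate 2 was the highest in each of these. Because the baseline and Day 5 counts come in separate tables, the processing of the tables and ADR cannot be told apart here. Leaving out genes below a mean of 1 CPM in the higher group, 841 genes were called higher and 817 lower.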
